A study of Mus musculus with 6 samples.

Results

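The enzymes described here make serine, glycine, one-carbon units, proline and asparagine, the non-essential amino acids and folate intermediates that a matrix-secreting cell builds for itself. They are 10 genes, *Phgdh*, *Psat1*, *Psph*, *Shmt1*, *Shmt2*, *Mthfd2*, *Mthfd1l*, *Aldh18a1*, *Pycr1* and *Asns*, out of the 17001 rows of the deposited table, and each symbol matched 1 row. They were chosen by symbol, as a pathway, after the difference between the groups in these same libraries had been looked at. Their differences between the groups are therefore given as a description, and no p-value is given for them.

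RNA was sequenced from preosteoblasts, the precursors of bone-forming osteoblasts, that were taken from skull caps of mouse pups aged 3 days and grown in culture. There were 3 control libraries of the genotype NELL2 fx/fx and 3 libraries labelled cKO of the genotype Col1-cre; NELL2 fx/fx, so both groups carried the floxed alleles and differed in the Cre transgene, which was driven by a fragment of the mouse Col1a1 promoter and acts in cells of the osteoblast lineage. The sources used here do not say whether a library came from 1 pup or from a pool, nor the sex of the pups. Expression was given as FPKM, the fragments of a gene corrected for transcript length and for library size, which hides the sequencing depth and leaves counting error unknown. Summed over all rows, the FPKM of the 6 libraries ranged from 573307 to 606428.

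The labels were checked first. *Nell2*, the targeted gene, measured 3.17, 2.59 and 1.88 FPKM in the controls (replicates 1, 2 and 3 in that order, here and below) and 5.64, 1.61 and 5.74 FPKM in the cKO libraries. It was not lower in the cKO group, and a value for the whole gene does not separate the floxed part from the rest, so directions below follow the labels. All 10 osteoblast lineage markers were detected, with *Col1a1*, a chain of type I collagen, the most abundant at a mean of 8273 FPKM. Markers of other cell types were detected too, among them epithelial, cartilage and adipocyte genes, and are given as whole lists further on. The Y-linked gene *Ddx3y* was at 17.27 FPKM in control replicate 3, 17.33 in cKO replicate 1 and 15.65 in cKO replicate 3, and it was at 0 or 0.06 in the remaining 3 libraries.

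Serine is made from the glycolytic intermediate 3-phosphoglycerate in a chain of steps catalysed by PHGDH, PSAT1 and PSPH. Serine hydroxymethyltransferases, SHMT1 in the cytosol and SHMT2 in mitochondria, split it into glycine and a one-carbon unit bound to tetrahydrofolate, and in mitochondria MTHFD2 and MTHFD1L carry that unit on to formate, which feeds purine and thymidylate synthesis. ALDH18A1 and PYCR1 turn glutamate into proline, of which collagen, like glycine, holds a large share, and ASNS makes asparagine from aspartate. Many of these genes are known targets of the transcription factor ATF4, which is translated when amino acids are short or the endoplasmic reticulum is stressed, and ATF4 is known to be needed for amino acid supply and collagen production in osteoblasts.

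All 10 enzymes had a higher mean log2 level in the libraries labelled cKO than in control libraries, but they did not move as a block. *Psph*, *Asns* and *Mthfd2* differed most, with mean FPKM in the cKO group 1.64, 1.59 and 1.59 times that of the control group, the proline enzymes *Aldh18a1* and *Pycr1* both reached 1.19 times, and the cytosolic *Shmt1* reached 1.06 times. In 6 of the 10 every library labelled cKO lay above every control library, as was the case for 6.51% of all 11590 genes tested. The median log2 difference of the 10, on the log2(FPKM + 1) scale, was 0.47, beside -0.02 for all genes tested. All 10 passed the filter of at least 1 FPKM in at least 3 libraries, and did so in every library. Across the whole table, limma with p-values adjusted by Benjamini-Hochberg called 0% of the genes at an adjusted p under 0.05 (smallest adjusted p = 0.312), so none of the 10 enzymes was among the calls, while 1521 genes had an unadjusted p under 0.05. Without cKO replicate 1 the count at an adjusted p under 0.05 was 334, and without control replicate 3 it was 2.

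**Figure D1:**
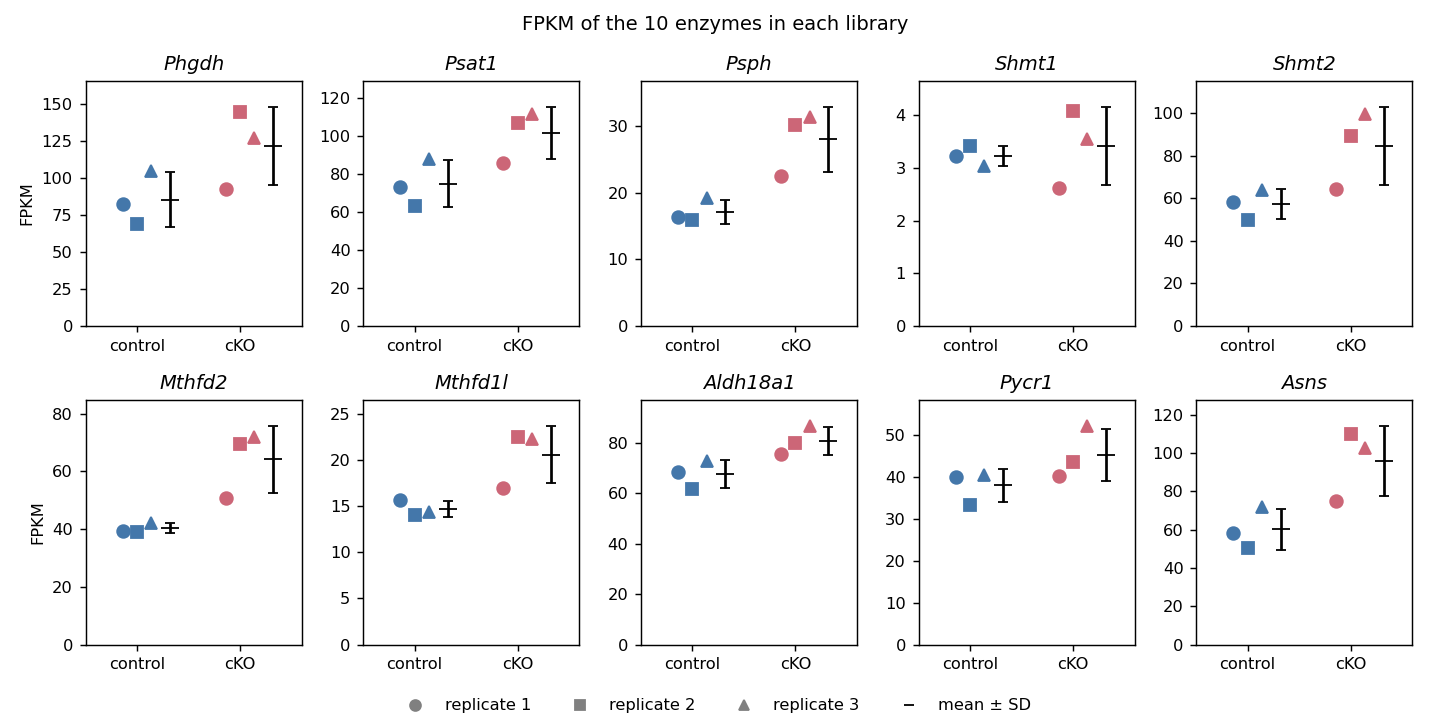
FPKM (vertical axes, each from 0) of the 10 enzymes in the 3 control libraries (blue) and the 3 libraries labelled cKO (red), with the marker shape giving the replicate number and the black bars the mean ± SD of a group (n = 3). The libraries cKO replicates 2 and 3 lie above all controls for every enzyme, while cKO replicate 1 is the cKO library nearest to the controls for 9 of them and is the lowest of the 6 libraries for *Shmt1*.

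The 3 enzymes of serine synthesis lie on different chromosomes. *Phgdh* (chr3:98313170-98339990, minus strand, GRCm38, GENCODE release M21), the entry enzyme of the pathway, was the most abundant of the 10 with a mean of 103.6 FPKM over the 6 libraries. The controls had 82.91, 68.76 and 105.2 FPKM and the cKO libraries 92.87, 144.91 and 127.02 FPKM. The groups overlapped, because control replicate 3 was above cKO replicate 1. The means were 85.6 ± 18.4 FPKM (SD, n = 3) in controls and 122 ± 26.4 (SD, n = 3) in cKO libraries, a log2 difference of 0.50 with a standard error of 0.20.

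*Psat1* (chr19:15904678-15947337, minus strand), the aminotransferase of the second step, followed at a mean of 88.1 FPKM. It was at 73.3, 63.21 and 87.79 FPKM in control replicates 1 to 3 and at 85.89, 106.7 and 111.56 FPKM in cKO replicates 1 to 3. Here too control replicate 3 exceeded cKO replicate 1, and the log2 difference was 0.44 (standard error 0.15). *Psph* (chr5:129765558-129787449, minus strand), the phosphatase that releases serine, was less abundant, with a mean of 22.6 FPKM, but separated the groups. Its FPKM was 16.34, 15.85 and 19.16 in controls and 22.46, 30.09 and 31.41 in cKO libraries. Every cKO library was above every control, and the log2 difference was 0.67 (standard error 0.14). With all libraries this was the largest of the 10 enzymes. It was not the largest with some libraries left out, such as without control replicate 3, where *Asns* (0.79) was above *Psph* (0.75).

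The pair of serine hydroxymethyltransferases behaved differently. *Shmt2* (chr10:127517123-127522444, minus strand), the mitochondrial enzyme, was at 58.44, 49.97 and 63.74 FPKM in controls and at 64.24, 89.39 and 99.7 FPKM in cKO replicates 1 to 3. The groups did not overlap, although cKO replicate 1 was only just above control replicate 3, and the log2 difference was 0.53 (standard error 0.17). *Shmt1* (chr11:60788104-60811718, minus strand), the cytosolic enzyme, was the least abundant of the 10, at 3.22, 3.41 and 3.04 FPKM in controls and 2.62, 4.08 and 3.54 FPKM in cKO libraries. Its lowest and its highest library were both in the cKO group, the log2 difference was 0.05 (standard error 0.12), and it was -0.06 without cKO replicate 2. *Shmt2* made up 94.6 ± 0.93% (SD, n = 3) of the FPKM of the pair in controls and 96.1 ± 0.47% (SD, n = 3) in cKO libraries, so the mitochondrial transcript was the main one in every library.

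The control values of the mitochondrial folate enzymes lay close together. *Mthfd2* (chr6:83305691-83325908, minus strand), a bifunctional dehydrogenase and cyclohydrolase that is high in embryonic and dividing cells, was at 39.43, 39.14 and 42.25 FPKM in control replicates 1 to 3. In cKO replicates 1 to 3 it was at 50.8, 69.6 and 72.02 FPKM. The lowest cKO library was thus clear of the highest control, with means of 40.3 ± 1.72 and 64.1 ± 11.6 FPKM (SD, n = 3 each) and a log2 difference of 0.64 (standard error 0.13). *Mthfd1l* (chr10:3973118-4167081, plus strand), the formate-releasing synthetase, was at 15.68, 14.03 and 14.39 FPKM in controls and 16.95, 22.46 and 22.25 FPKM in cKO libraries, again without overlap and with a log2 difference of 0.45 (standard error 0.12). *Mthfd2l*, the adult-tissue isoenzyme of *Mthfd2*, was at 2.94 to 4 FPKM in the controls and 3.28 to 3.91 FPKM in the cKO libraries, so that *Mthfd2* held 91.9 ± 0.96% of the pair's FPKM in controls and 94.5 ± 1.47% in cKO libraries (SD, n = 3 each).

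**Figure D2:**
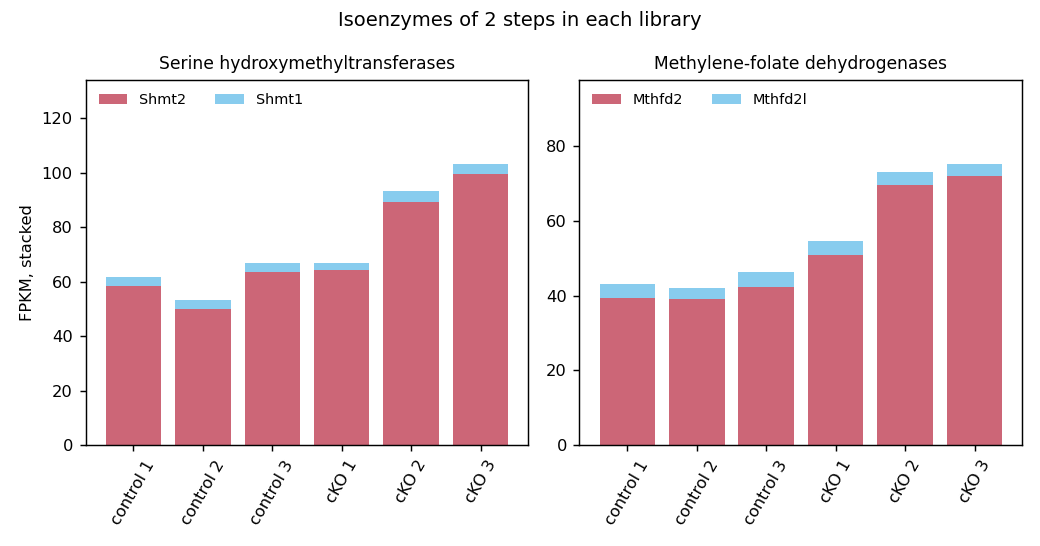
Stacked FPKM (vertical axis, from 0) of the isoenzymes of 2 steps in each of the 6 libraries (horizontal axis, group and replicate number). *Shmt2* and *Mthfd2* make up over 91% of their stacks in every library and carry the height of the cKO bars.

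The proline enzymes were abundant and differed least after *Shmt1*. *Aldh18a1* (chr19:40550257-40588463, minus strand), which commits glutamate to proline and ornithine, was at 68.31, 61.76 and 73.01 FPKM in controls and 75.59, 79.89 and 86.79 FPKM in cKO libraries. The groups did not overlap, but the difference was small, 0.25 on the log2 scale (standard error 0.09). *Pycr1* (chr11:120635712-120643769, minus strand), the mitochondrial reductase of the last step, was at 40.08, 33.42 and 40.59 FPKM in controls and 40.18, 43.61 and 52.3 FPKM in cKO libraries. Control replicate 3 was above cKO replicate 1, and the log2 difference was 0.25 (standard error 0.12), which was 0.16 without control replicate 2 and 0.14 without cKO replicate 3. The cytosolic reductase *Pycrl* had a log2 difference of -0.10.

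*Asns* (chr6:7675169-7693254, minus strand), the asparagine synthetase and a classic gauge of amino acid shortage, was at 58.49, 50.59 and 71.64 FPKM in control replicates 1 to 3. In cKO replicates 1 to 3 it was at 75.1, 109.99 and 102.58 FPKM. All cKO libraries were above all controls, with cKO replicate 1 closest to them, and the log2 difference was 0.66 (standard error 0.18). By mean FPKM over the 6 libraries the enzymes ranked *Phgdh*, *Psat1*, *Asns*, *Aldh18a1*, *Shmt2*, *Mthfd2*, *Pycr1*, *Psph*, *Mthfd1l* and *Shmt1*, from 103.6 to 3.32 FPKM. The values of *Asns* (78.1), *Aldh18a1* (74.2) and *Shmt2* (70.9) lay closer together than the spread of each over the libraries. Neither group had that order: control means were *Aldh18a1* 67.7, *Asns* 60.2 and *Shmt2* 57.4 FPKM. In cKO libraries they were *Asns* 95.9, *Shmt2* 84.4 and *Aldh18a1* 80.8 FPKM.

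The libraries within a group were not alike. Their order is not free of the contrast between the groups, because the enzymes were chosen after that contrast was seen. All genes tested were not chosen in this way, so their shares are given as a description and not as a test. In cKO replicate 1 all 10 enzymes were at the lowest of the 3 cKO values, where 37.2% of all genes tested had that library lowest. In control replicate 2, 9 of the 10 were at the lowest control value, against 30.2% of all genes, with *Shmt1* the exception. Control replicate 3 held the highest control value for 8 of the 10, against 39.4% of all genes, with *Mthfd1l* highest in control replicate 1 and *Shmt1* in control replicate 2. Relative to each gene's own mean, the median of the 10 on the log2(FPKM + 1) scale stood at -0.23, -0.40 and -0.08 in the controls and at -0.02, 0.36 and 0.35 in the cKO libraries. The summed FPKM of the 10 showed the same step, from 400 to 521 in the controls, 527 in cKO replicate 1, and 701 and 709 in cKO replicates 2 and 3.

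**Figure D3:**
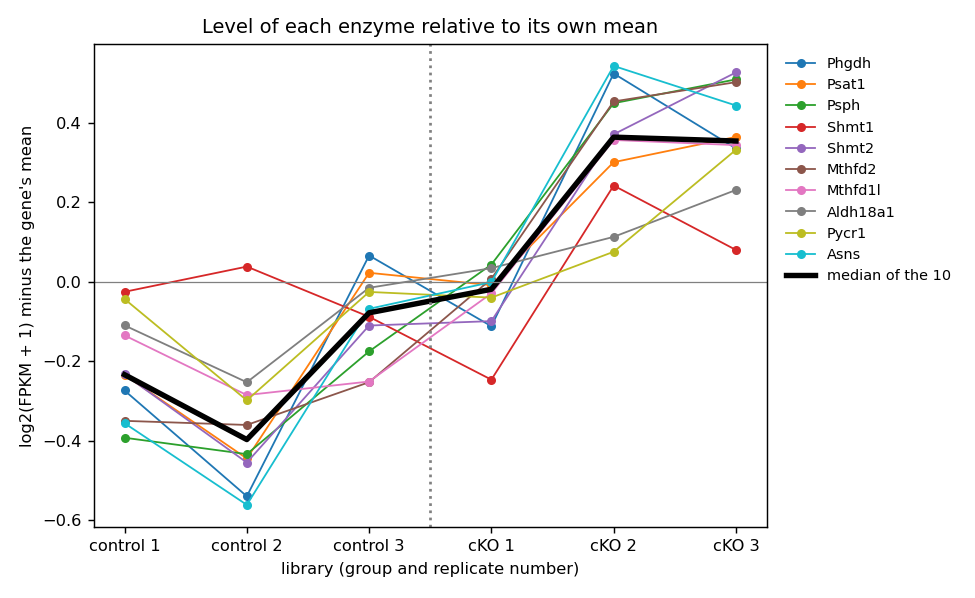
Level of each of the 10 enzymes in each library, as log2(FPKM + 1) minus the gene's mean over the 6 libraries (vertical axis), with the black line giving the median of the 10 and lines only joining the values of a gene. The median lies at -0.08 in control replicate 3 and -0.02 in cKO replicate 1, below the 0.36 and 0.35 of cKO replicates 2 and 3, and *Shmt1* departs from the others.

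Values were also taken without cKO replicate 1. As it held the lowest cKO value for all 10, larger differences without it follow from its place and are no further evidence. Without it the median log2 difference of the 10 was 0.63, and the differences ran from 0.19 for *Shmt1* and 0.30 for *Aldh18a1* to 0.81 for *Psph* and 0.82 for *Asns*. Within the libraries that carried *Ddx3y* (1 control, 2 cKO) all 10 enzymes were higher in cKO by a median of 0.23, from 0.005 for *Shmt1* and 0.05 for *Phgdh* to 0.45 for *Psph* and 0.51 for *Mthfd2*, with *Asns* at 0.29. Within those that lacked it (2 control, 1 cKO) all 10 were higher by a median of 0.68, from 0.24 for *Shmt1* to 0.93 for *Phgdh* and just over 1 for *Asns*, and each subset has a group of 1 library, so no test was made within them.

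Neighbouring enzymes of the same pathways were taken as lists. Lists for the cytosolic folate and methionine cycle, mitochondrial folate and glycine cleavage, proline and ornithine, glutamate with aspartate and asparagine, and serine use held 41 tested genes, and their median log2 difference was -0.03, with 16 genes above 0 and 25 below, where 44.2% of all genes tested were above 0. By limma 0 of the 41 had an adjusted p under 0.05. At an unadjusted p under 0.05, 3 were higher and 2 were lower, where 5.37% of all genes were higher and 7.76% lower at that p. The groups separated upwards in 2 of the 41 and downwards in 4, beside 6.51% and 11.8% of all genes.

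The 3 genes higher at an unadjusted p under 0.05 were *Aldh1l2*, *Cth* and *Gpt2*. *Aldh1l2*, the mitochondrial enzyme that oxidises formyl-tetrahydrofolate, was at 27.8, 20.81 and 35.39 FPKM in controls and 37.16, 50 and 51.79 FPKM in cKO replicates 1 to 3, a log2 difference of 0.72 (standard error 0.21, adjusted p = 0.312 from limma). *Cth*, which makes cysteine from cystathionine, was at 3.38, 3.53 and 6.34 FPKM in controls and 6.9, 13.7 and 13.11 FPKM in cKO libraries, a log2 difference of 1.16 (standard error 0.29, adjusted p = 0.312 from limma). *Gpt2*, the mitochondrial alanine aminotransferase, had a log2 difference of 0.58 with overlapping groups. All of these had cKO replicate 1 as the lowest cKO library.

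In the other direction, *Gcsh*, the lipoate-carrying protein of glycine cleavage, was at 64.7, 67.24 and 59.66 FPKM in controls and 60.83, 47.19 and 48.08 FPKM in cKO libraries, with overlapping groups and a log2 difference of -0.30 (standard error 0.11). *Gldc* and *Amt*, the other specific parts of the glycine cleavage system, stayed below 1 FPKM in all 6 libraries and were not tested. *Slc19a1*, the reduced folate carrier, had the largest value of the cytosolic list at 0.14, and *Mat2a*, the most abundant gene of that list, was at 0.04. *Oat*, ornithine aminotransferase, the most abundant proline and ornithine gene with a mean of 200.9 FPKM, had a log2 difference of -0.12, *Got2* one of -0.07, *Sptlc2* -0.09 and *Serinc3*, the most abundant of the serine use list, -0.02. None of these had an adjusted p under 0.05.

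**Figure D4:**
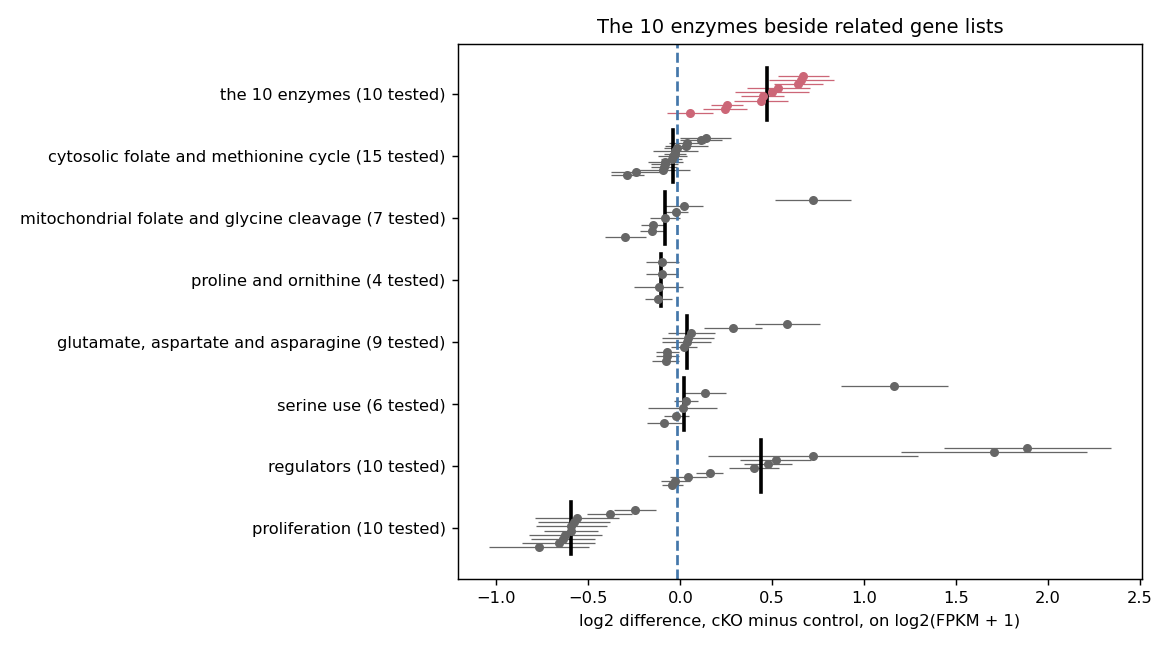
Log2 difference, cKO minus control, on log2(FPKM + 1) (horizontal axis) with its standard error (horizontal bars) for each tested gene of the lists named on the left, ordered by size within a list. Vertical black bars mark list medians, 0.47 for the 10 enzymes (red) and between -0.11 and 0.03 for the 5 lists of neighbouring enzymes, and the dashed blue line marks the median of all 11590 genes tested.

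Transcripts of a list of regulators were set beside the enzymes. The list mixes factors known to act on such genes with ATF4-induced ones such as *Trib3*, so its counts are not counts of upstream factors. *Atf4* was at 175.08, 171.34 and 186.85 FPKM in controls and 200.41, 279.7 and 270.92 FPKM in cKO replicates 1 to 3, with all cKO libraries above all controls and a log2 difference of 0.48 (standard error 0.13, adjusted p = 0.312 from limma). *Ddit3* (CHOP), a stress-induced partner of the C/EBP family, was at 24.77, 22.52 and 34.83 FPKM in controls and 36.78, 135.9 and 145.06 FPKM in cKO libraries, and *Trib3*, an inhibitor that ATF4 induces, at 7.71, 6.6 and 13.37 FPKM and 16.68, 51.38 and 50.95 FPKM. Both had the same library order as most of the enzymes, low in cKO replicate 1 and high in cKO replicates 2 and 3, with log2 differences of 1.71 and 1.89. *Sesn2* (0.52), *Cebpg* (0.40), *Cebpb* (0.72) and *Nfe2l2* (0.16) were also higher on the log2 scale, while *Myc* (0.04) and the eIF2α kinases *Eif2ak3* (-0.04) and *Eif2ak4* (-0.03) lay near 0. Of the 10 regulators, 8 were higher, beside 44.2% of all genes, 5 of them at an unadjusted p under 0.05, beside 5.37% of all genes, and 0 had an adjusted p under 0.05 in limma. Without control replicate 1, in which *Cebpb* was at 9.5 FPKM against 40.11 and 46.19 in the other controls, the median of the list went from 0.44 to 0.22. In cKO replicates 1 to 3 *Cebpb* was at 29.66, 50.59 and 56.69 FPKM. Its groups overlapped, and its 0.72 rested largely on control replicate 1.

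The genes with the most similar profile over the 6 libraries were found by Pearson's r with the mean of the 10 enzymes, among 8350 other genes with a mean of at least 5 FPKM. They were *Phyhd1* (r = 0.998), *Fam171b* (r = 0.995), *Hscb* (r = 0.995), *Zfp358* (r = 0.995) and *Kctd15* (r = 0.994). This is a ranking over 6 libraries that fall into the same groups, and 337 of those genes (4.04%) reached an r of 0.9. The closest, *Phyhd1*, was at 5.76, 4.96 and 7.43 FPKM in controls and 8.03, 14.17 and 14.32 FPKM in cKO replicates 1 to 3.

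Other measurements moved with the same libraries. All 10 proliferation genes examined were lower in the libraries labelled cKO (median log2 difference -0.59), 9 of them at an unadjusted p under 0.05, beside 7.76% of all genes lower at that p, and 0 at an adjusted p under 0.05 in limma. *Mki67* was at 7.88, 9.83 and 7.04 FPKM in controls and 6.8, 4.15 and 3.86 FPKM in cKO replicates 1 to 3, so that cKO replicate 1 again lay next to the controls. *Pcna*, the sliding clamp of DNA replication and the most abundant of the list at a mean of 74.5 FPKM, had the smallest shift at -0.25, and the mitotic kinase *Plk1* stood lowest at -0.77. The median of this list was -0.81 without cKO replicate 1. The part of a lower share of dividing cells in the values of the enzymes was not tested, and in bulk RNA a smaller number of such cells and less RNA in each cannot be told apart.

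Markers of other cells were examined as whole lists. The 6 epithelial markers summed to 0.46, 3.61 and 13.39 FPKM in controls and 42.72, 36.9 and 18.17 FPKM in cKO replicates 1 to 3, with *Krt18* the most abundant. *Krt18* and *Krt8* had log2 differences of 2.48 and 2.31, both at an unadjusted p under 0.05, where 5.37% of all genes were higher at that p. *Epcam* was at 0, 0.15 and 0.47 FPKM in controls and 1.37, 1.58 and 1.21 FPKM in cKO libraries, so it passed the filter only through the cKO group and its p is not used. The sum was highest in cKO replicate 1 through *Krt8* and *Krt18*, whereas *Krt5* and *Krt14* had that library lowest of the cKO group and *Epcam* was highest in cKO replicate 2. The 5 adipocyte genes summed to 29.1, 33 and 43.3 FPKM in controls and 68.6, 112.7 and 75.5 FPKM in cKO libraries, nearly all of it from *Fabp4* and *Lpl*. The 3 that passed the filter (*Fabp4*, *Lpl* and *Pparg*) were higher in cKO by a median log2 difference of 0.46. *Fabp4* (1.68) and *Pparg* (0.35) were higher at an unadjusted p under 0.05, as were 5.37% of all genes. *Adipoq* and *Plin1* stayed at or below 0.39 and 0.1 FPKM. The 5 cartilage genes, led by *Col2a1*, summed to 155, 168.4 and 99.2 FPKM in controls and 153.7, 178.9 and 173.8 FPKM in cKO libraries. *Col2a1* carried most of that sum. Gene by gene all 5 were higher in cKO, with a median log2 difference of 0.45, close to the 0.47 of the enzymes. For 3 of them (*Acan*, *Col9a1* and *Comp*) this was at an unadjusted p under 0.05, beside 5.37% of all genes. In 1 of the 5 all cKO libraries lay above all controls, beside 6.51% of all genes. The 7 macrophage genes, led by *Lyz2*, summed to 61, 35.7 and 93.5 FPKM in controls and 48.3, 69.9 and 76 FPKM in cKO libraries. The 5 muscle genes, led by *Acta1*, summed to 35.7, 29.8 and 55 FPKM and 40.6, 47 and 42.1 FPKM, and the 5 endothelial genes, led by *Cdh5*, to at most 3.87 FPKM in any library. Of the osteoblast lineage markers 8 of 10 were lower in cKO libraries and 2 higher, with a median log2 difference of -0.33. At an unadjusted p under 0.05, 5 were lower (7.76% of all genes were), each with all cKO libraries below all controls. These were the matrix genes *Ibsp* (log2 difference -1.27) and *Bglap* (-1.15), the transcription factors *Msx1* (-0.68) and *Sp7* (-0.48) and the phosphatase *Alpl* (-0.45). At the same p 1 was higher (5.37% of all genes were), *Postn*, a matrix protein of the periosteum, with all cKO libraries above all controls and a log2 difference of 0.47. The part of any of these in the values of the enzymes was not tested.

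Promoters were examined because ATF4, paired with a C/EBP protein, is known to bind an element of the form TGATGNAA in genes of amino acid supply. The window ran from 250 bases before to 50 bases after each RefSeq start on GRCm38.p6, both strands were searched, and all 10 enzymes had a window, *Psat1* 2 of them. The element was found in 2 of the 10, *Asns* and *Pycr1*, and in 4.51% of the 27025 genes with a window. With its last letter left off, as TGATGNA, it was found in 4 of the 10, *Mthfd2* and *Aldh18a1* in addition, and in 13.8% of all genes. In *Asns* it lay at chr6:7693225-7693232, its first base 23 bases before the start and with the letters of the nutrient-sensing element known from this gene, and in *Pycr1* at chr11:120643844-120643851, 103 bases before the start. The stretches around these matches are shown from 5′ to 3′ on the strand of the gene, all ending before the start site, with the match in capitals, so that the elements can be compared. They are chr6:7693210-7693272 (*Asns*), chr11:120643804-120643891 (*Pycr1*), chr6:83317743-83317829 (*Mthfd2*) and chr19:40588605-40588691 (*Aldh18a1*), all on the minus strand. The *Asns* and *Mthfd2* stretches lie wholly or partly inside the GENCODE gene, whose longest transcript starts further upstream. In *Mthfd2* the shorter form stood 185 bases before the start, and in *Aldh18a1* it lay on the opposite strand, 188 bases before the start.
Asns: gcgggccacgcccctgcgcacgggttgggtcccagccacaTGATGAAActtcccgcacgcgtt
Pycr1: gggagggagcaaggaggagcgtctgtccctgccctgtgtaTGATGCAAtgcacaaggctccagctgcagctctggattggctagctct
Mthfd2: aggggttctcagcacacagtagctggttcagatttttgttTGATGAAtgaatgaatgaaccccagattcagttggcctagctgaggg
Aldh18a1: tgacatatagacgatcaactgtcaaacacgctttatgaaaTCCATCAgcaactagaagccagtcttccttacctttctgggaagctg

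*Asns* and *Pycr1*, which hold the full form, had log2 differences of 0.66 and 0.25, and *Psph*, at 0.67, held neither form in its window. The difference of *Psph* was the largest with all libraries, but not with some libraries left out. A match is a description of letters, not of binding, and elements further from the start were not searched.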

How the data were processed

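Per the labels and the methods, polyA RNA was sequenced as paired-end reads and mapped with HISAT2 to the mouse transcriptome (GRCm38). The authors deposited FPKM values with 2 decimals, keyed by gene symbol. The annotation release and the program that computed them are not given in the sources used here, and DESeq normalization, named in the methods, is not carried by FPKM. Low values gave relative depths of 0.944 to 1 from 10 to 20 rows per library. Only ratios near 1 were kept for this, so the result was bound to lie near 1 and does not measure depth. Values were taken as log2(FPKM + 1), which understates changes of low genes, and the 11590 rows with at least 1 FPKM in at least 3 libraries were compared with limma 3.58.1 in R 4.3.3 (lmFit, eBayes, Benjamini-Hochberg adjustment), as fixed for FPKM in place of raw counts. The fit was tested on simulated data. Nothing in the sources used here says that replicates came from separate animals, so p-values measure only the spread between these libraries, which may be technical. The enzymes, lists, filter and tests were chosen with earlier results of these data known. Genes named are *Nell2*, *Ddx3y*, the 10 enzymes, the regulators, in each pathway list the largest, smallest and most abundant member, in each marker list the most abundant, and the 5 most similar genes; *Mthfd2l*, *Pycrl*, *Gldc*, *Amt*, *Mki67*, *Acan*, *Col9a1*, *Comp*, *Postn*, *Ibsp*, *Bglap*, *Msx1*, *Sp7*, *Alpl*, *Krt5*, *Krt8*, *Krt14*, *Pparg*, *Epcam*, *Adipoq*, *Plin1*, *Lpl* and *Col1a1* were added as isoenzymes or markers after their values were seen. Some genes that this rule names are not reported here. Alternatives were pseudocount, filter, scaling, variance trend, *Ddx3y* as a covariate, replicate block and each library left out. A planned comparison of protein sequences was not run. Promoter sequences came from RefSeq on GRCm38.p6 and gene positions from GENCODE release M21.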

Additional observations from a re-analysis of the deposited data

How the results depend on the processing

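All 10 enzymes were higher in the libraries labelled cKO under every alternative of pseudocount (0.1), filter, scaling, variance trend, *Ddx3y* covariate and replicate block, and the median log2 difference of 0.47 ran from 0.39 to 0.63 with 1 library left out. The exception in direction was *Shmt1*, whose log2 difference of 0.05 ran from -0.058 without cKO replicate 2, which left 9 enzymes higher, to 0.19 without cKO replicate 1, and *Pycr1* went from 0.25 to 0.14 without cKO replicate 3 and 0.16 without control replicate 2; the cause was not tested. The count of enzymes with all cKO libraries above all controls was 6, and 6 to 10 with 1 library left out, 10 without cKO replicate 1 and 9 without control replicate 3; with median-of-ratios or upper-quartile scaling it was 8, while that count over all genes went from 755 to 970 and 1039. Over the whole table, 0 genes had an adjusted p under 0.05 under each alternative with 6 libraries, the replicate block included, and 0 to 334 with 1 library left out, 334 without cKO replicate 1 and 2 without control replicate 3. At an unadjusted p under 0.05 there were 1521 genes, 1465 with the replicate block, and 852 to 2459 with 1 library left out. Genes whose cKO libraries all lay above the controls numbered 755, and 974 to 2032 with 1 library left out, since fewer libraries separate more genes. Same-numbered libraries deviated together with r of 0.03, -0.17 and 0.21, beside -0.272 to 0.275 for libraries of different numbers. No pairing by number was seen, but a check on so few libraries cannot exclude it. The block changed no count by over 1.5 times. The promoter element was in 2 of the 10 with or without the 50 bases after the start, and in 4 with the shorter TGATGNA. Alternatives for raw counts were not run on FPKM. Depth is unknown, so counting error at low values, such as those of *Shmt1*, cannot be given.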
